A study of Homo sapiens with 6 samples.

Results

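The genes of MHC class I antigen presentation were examined after silencing of PPP2R2A in the human bladder cancer line RT-112. PPP2R2A encodes a regulatory B subunit of protein phosphatase 2A. The set held 10 genes, chosen by name: the heavy chains HLA-B, HLA-C, HLA-E and HLA-F, the light chain B2M, the peptide transporter TAP1 and TAP2, its partner tapasin (TAPBP), and the immunoproteasome subunits PSMB8 and PSMB9. They were represented by every probe set that the platform table assigns to 1 of these symbols alone, 26 of the 54675 probe sets on the array. Of the 26, 24 read above the array's median on at least 2 of the 6 arrays, and each of the 10 genes had at least 1 such probe set. Transcript levels were compared between RT-112 cells transfected with scramble siRNA, siPPP2R2A_1 (siRNA 1) or siPPP2R2A_2 (siRNA 2). Each group had 2 arrays, A and B. All groups, the scramble controls included, received 50 nM siRNA with Lipofectamine RNAiMAX at 50% confluence, a further transfection 24 h later, and were harvested after another 24 h. The design calls the arrays technical duplicates of 1 cell line, so p-values and intervals measure the spread between these arrays and not between separate experiments. In such bulk samples a smaller share of expressing cells and less RNA per cell cannot be told apart.

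MHC class I molecules display peptides from the cell's own proteins to CD8+ T cells and engage receptors on natural killer cells. Proteasomes cut proteins to peptides, TAP carries these into the endoplasmic reticulum, tapasin holds the empty heavy chain beside TAP, and the loaded complex of heavy chain, B2M and peptide goes to the surface. Interferons raise the pathway as a whole through IRF, STAT and NF-kappaB factors and through NLRC5, and the immunoproteasome subunits replace their constitutive counterparts. Tumours, bladder cancers among them, can lose parts of the pathway.

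Promoter sequences came from a table of RefSeq promoters (GRCh38.p14) in which 9 of the 10 genes, all but HLA-E, were matched, in 11 windows of 250 bases upstream of a start site. The windows of 5 genes follow: PSMB9 and TAPBP, which differed most between the siRNAs, TAP1, the gene next to PSMB9, and the chains B2M and HLA-B. The windows are the reference sequence, not that of RT-112, and lie at chr6:32853942-32854191 (plus strand) for PSMB9, chr6:32853705-32853954 (minus strand) for TAP1, chr6:33314079-33314328 (minus strand) for TAPBP, chr15:44711267-44711516 (plus strand) for B2M and chr6:31357180-31357429 (minus strand) for HLA-B. Capitals mark matches on either strand to an interferon-type motif (GAAANNGAA), the kappaB consensus or a STAT-type motif (TTCNNNGAA).
PSMB9: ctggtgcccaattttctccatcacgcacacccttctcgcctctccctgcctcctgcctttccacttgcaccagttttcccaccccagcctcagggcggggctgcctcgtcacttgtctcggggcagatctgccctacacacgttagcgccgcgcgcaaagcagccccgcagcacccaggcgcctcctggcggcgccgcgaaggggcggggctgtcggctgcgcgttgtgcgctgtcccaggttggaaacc
TAP1: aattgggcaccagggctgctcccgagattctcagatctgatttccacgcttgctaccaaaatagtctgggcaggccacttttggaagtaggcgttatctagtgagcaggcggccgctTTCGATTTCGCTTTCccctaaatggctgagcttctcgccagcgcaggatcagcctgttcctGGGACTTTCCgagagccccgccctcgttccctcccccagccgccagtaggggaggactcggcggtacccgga
TAPBP: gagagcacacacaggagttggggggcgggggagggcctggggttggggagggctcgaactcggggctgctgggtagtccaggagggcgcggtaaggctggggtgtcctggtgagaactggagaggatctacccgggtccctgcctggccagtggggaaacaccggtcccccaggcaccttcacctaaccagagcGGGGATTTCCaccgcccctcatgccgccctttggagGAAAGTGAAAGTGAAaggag
B2M: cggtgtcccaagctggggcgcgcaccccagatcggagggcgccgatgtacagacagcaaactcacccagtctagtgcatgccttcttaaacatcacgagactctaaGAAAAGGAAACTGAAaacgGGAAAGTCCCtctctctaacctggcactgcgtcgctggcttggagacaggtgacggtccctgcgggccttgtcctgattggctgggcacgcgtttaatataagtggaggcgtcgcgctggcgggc
HLA-B: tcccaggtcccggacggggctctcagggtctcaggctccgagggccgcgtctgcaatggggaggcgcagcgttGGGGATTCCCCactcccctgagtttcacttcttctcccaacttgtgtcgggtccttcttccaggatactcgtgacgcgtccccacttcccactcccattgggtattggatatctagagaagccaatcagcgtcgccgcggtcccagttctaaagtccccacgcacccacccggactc

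The interferon-type motif was found in 6.88% of all 35116 such windows and in those of 5 of the 9 genes, B2M, HLA-F, TAP1, TAP2 and TAPBP. In B2M 2 overlapping matches began 144 and 138 bases upstream of the start site, in TAP1 at 133 and 127 bases (on the opposite strand), and in TAPBP at 20 and 14 bases. The kappaB consensus was found in 9.96% of all windows and in 5 of the 9 genes, B2M, HLA-B, HLA-C, TAP1 and TAPBP. It began 72 bases upstream in TAP1, 56 in TAPBP and 125 in B2M, and in HLA-B 2 matches shifted by 1 base overlap at 177 and 176. The STAT-type motif, which reads the same on both strands, was in 6.57% of windows and in 1 of the 2 windows each of TAP1 and PSMB8. The PSMB9 window held no match to any of the 3. TAP1 and PSMB9 are neighbours transcribed away from each other, and their windows share 13 bases at their far ends. The interferon-type and kappaB matches of TAP1 thus lie upstream of PSMB9 too, beyond the PSMB9 window. A match describes letters only, and no binding was measured. Variants of a motif were not counted, so a window without a match may still hold a related element.

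Both siRNAs lowered their target. PPP2R2A read 1381 and 1589 in scramble cells, 336 and 397 under siRNA 1, and 509.96 and 533 under siRNA 2. It fell by 75.3% with siRNA 1 (limma adjusted p = 0.0403) and by 64.8% with siRNA 2 (adjusted p = 0.0461). Of 12 urothelial and epithelial markers 11 passed the filter, all but UPK3A (4.45 to 7.91). The dimmest of the 11 were KRT20 (10.9 to 93.4) and UPK2 (50.3 to 154). CDH1, the adhesion protein E-cadherin, read 16923 and 15825 in scramble cells, 18213 and 18262 under siRNA 1, and 11545 and 11729 under siRNA 2. Of 8 leukocyte markers with a probe set 2 passed, and PTPRC, the pan-leukocyte marker CD45, read 5.65 to 27.6, below the array medians of 69.3 to 76.2. Among 10 fibroblast and endothelial markers 5 passed, led by LUM (4520 to 6351), while COL1A2, COL3A1, PDGFRB, VWF and KDR did not. ACTB, whose 3' and 5' control probe sets report on RNA integrity, had a ratio of the former to the latter of 5.43 and 5.94 in scramble cells, 6.52 and 7.82 under siRNA 1, and 7.47 and 12.4 under siRNA 2. For GAPDH the same ratio was 1.00 and 1.00 in scramble cells, 1.00 and 1.02 under siRNA 1, and 1.00 and 0.943 under siRNA 2. What part RNA integrity had in the results below was not tested.

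None of the 10 class I genes passed the test with either siRNA, although several stood higher with siRNA 1. A gene was called at a limma adjusted p under 0.05, over all 12735 genes tested, and a change of at least 1.5-fold. PSMB9 stood highest with siRNA 1, by a log2 difference of 0.42, and TAP2 lowest with siRNA 2, by -0.26. Over the 6 arrays the brightest and dimmest signal of a gene differed by 1.15-fold (B2M) to 1.45-fold (PSMB9), with a median of 1.27-fold against 1.41-fold over all genes tested. The median difference between duplicates, in log2 units, was 0.08 with scramble, 0.04 with siRNA 1 and 0.09 with siRNA 2 for these genes. Over all genes it was 0.14, 0.14 and 0.15. The 10 genes read 631 or more, well above the array medians of 69.3 to 76.2, and genes of like signal were not compared.

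**Figure D1:**
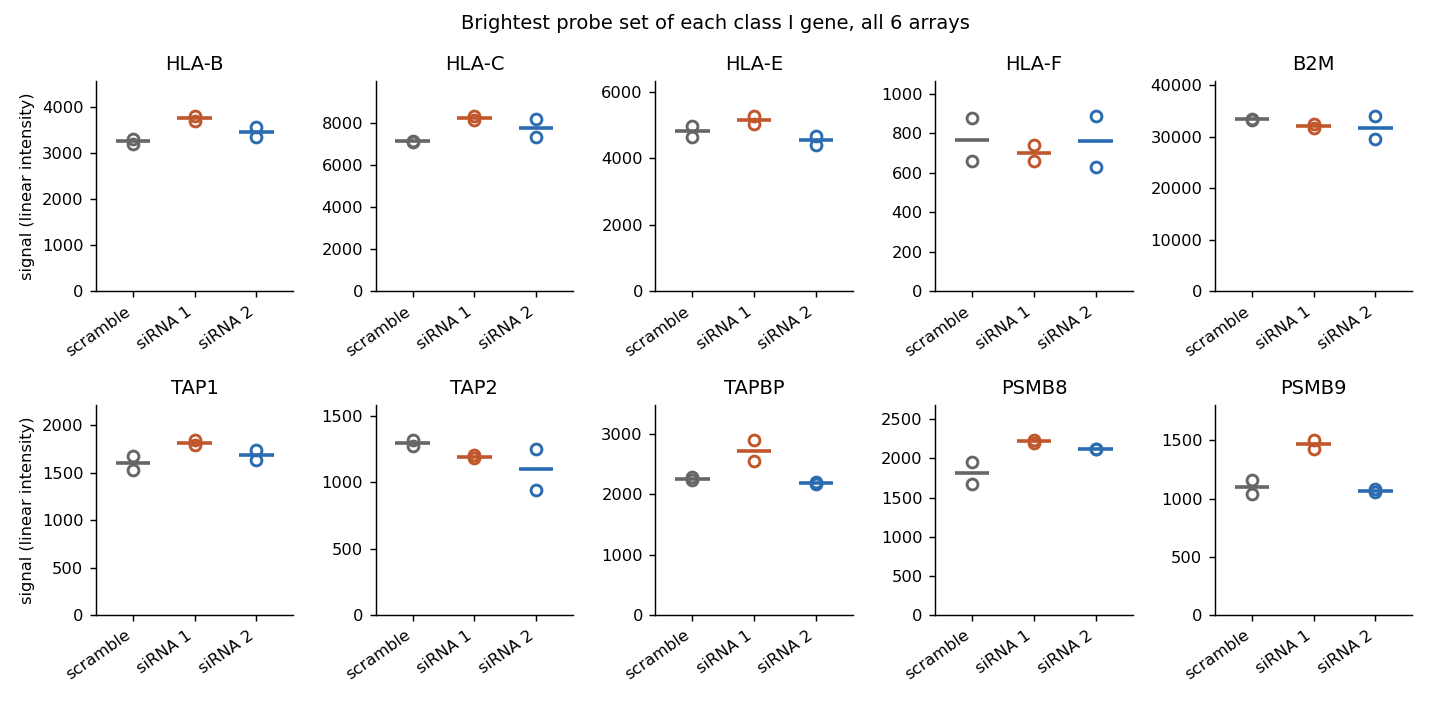
Linear signal intensity (y axis, from 0) of the brightest probe set of each of the 10 genes in the scramble, siRNA 1 and siRNA 2 groups; circles are the 2 arrays of a group and bars their mean. PSMB9 with siRNA 1 (1430.0 and 1505) stands apart from all other arrays of that gene, while B2M lies between 29520.3 and 33967 throughout.

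Among the immunoproteasome subunits, PSMB9, the beta1i subunit, read 1039 and 1155 in scramble cells, 1430.0 and 1505 under siRNA 1, and 1055 and 1079 under siRNA 2. Both siRNA 1 arrays lay above the other 4, and siRNA 2 lay within the scramble range. The log2 difference from scramble was 0.42 ± 0.09 (SE) with siRNA 1 (95% interval 0.18 to 0.66, limma adjusted p = 0.156) and -0.04 with siRNA 2 (-0.28 to 0.20, adjusted p = 0.853). When limma's prior variance was let follow signal intensity, PSMB9 reached an adjusted p = 0.0360 with siRNA 1, but its 1.34-fold difference stayed under 1.5-fold. PSMB8, the beta5i subunit, read 1672 and 1952 in scramble cells, 2199 and 2237 under siRNA 1, and 2125 and 2122 under siRNA 2. All 4 knockdown arrays lay above both scramble arrays, and the scramble duplicates were the pair farthest apart. The log2 differences were 0.30 (95% interval 0.03 to 0.57, adjusted p = 0.277) and 0.23 (-0.04 to 0.50, adjusted p = 0.295). Neither subunit was called.

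In the transport and loading complex, tapasin (TAPBP), which bridges TAP and the heavy chain, read 2284 and 2235 in scramble cells, 2907 and 2548 under siRNA 1, and 2211 and 2181 under siRNA 2. Its groups did not overlap, siRNA 1 being highest and siRNA 2 lowest. The log2 differences were 0.27 (95% interval 0.02 to 0.52, limma adjusted p = 0.287) and -0.04 (-0.29 to 0.21, adjusted p = 0.848). TAP1, a subunit of the peptide transporter, read 1674 and 1534 in scramble cells, 1848 and 1789 under siRNA 1, and 1629.9 and 1735 under siRNA 2. The siRNA 1 arrays lay above the rest, and scramble and siRNA 2 overlapped. Its log2 differences were 0.18 (-0.05 to 0.42, adjusted p = 0.408) and 0.07 (-0.16 to 0.30, adjusted p = 0.713). TAP2, the partner of TAP1 in the transporter, read 1275 and 1322 in scramble cells, 1181 and 1206 under siRNA 1, and 1255 and 942 under siRNA 2. All 4 knockdown arrays lay below both scramble arrays. The lowest was siRNA 2 array B, the array with the highest ACTB and the lowest GAPDH 3' to 5' ratio. The log2 differences of TAP2 were -0.12 (-0.53 to 0.28, adjusted p = 0.746) and -0.26 (-0.66 to 0.15, adjusted p = 0.422). Without siRNA 2 array B the difference with siRNA 2 was -0.05. Neither transporter subunit was called.

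Of the classical heavy chains, HLA-B read 3209.7 and 3305 in scramble cells, 3704 and 3807 under siRNA 1, and 3357 and 3563 under siRNA 2. The groups did not overlap, in the order scramble, siRNA 2, siRNA 1. The log2 differences were 0.21 (95% interval -0.0038 to 0.41, limma adjusted p = 0.315) and 0.09 (-0.12 to 0.30, adjusted p = 0.599). HLA-C, which also binds killer cell receptors, read 7099 and 7146 in scramble cells, 8129.7 and 8320.4 under siRNA 1, and 7312 and 8164 under siRNA 2. All knockdown arrays lay above scramble, and the siRNAs overlapped. Its log2 differences were 0.21 (-0.03 to 0.44, adjusted p = 0.353) and 0.12 (-0.12 to 0.35, adjusted p = 0.525).

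The non-classical HLA-E, the ligand of the natural killer receptor NKG2A, read 4641 and 4993 in scramble cells, 5031 and 5277.5 under siRNA 1, and 4417 and 4689 under siRNA 2. Scramble overlapped siRNA 2 and lay just under siRNA 1. Its log2 differences were 0.10 (95% interval -0.13 to 0.33, limma adjusted p = 0.644) and -0.08 (-0.31 to 0.15, adjusted p = 0.658). HLA-F, another non-classical heavy chain, read 877 and 659.8 in scramble cells, 739 and 661 under siRNA 1, and 887 and 631 under siRNA 2. The 3 groups overlapped, and array A lay above array B in each. With duplicates this far apart its intervals were the widest of the set with both siRNAs, -0.72 to 0.47 with siRNA 1 and -0.62 to 0.57 with siRNA 2.

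B2M, the light chain shared by all class I heavy chains, read 33189.8 and 33430.1 in scramble cells, 32431 and 31663 under siRNA 1, and 29520.3 and 33967 under siRNA 2. The siRNA 1 arrays lay just below scramble, and the siRNA 2 arrays spanned both other groups. The log2 differences were -0.06 (95% interval -0.31 to 0.20, limma adjusted p = 0.823) and -0.07 (-0.33 to 0.19, adjusted p = 0.727). These signals are near the top of the scale, where the brightest probe set of each array read 44237 to 54355, and whether they still follow the amount of RNA was not tested.

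**Figure D2:**
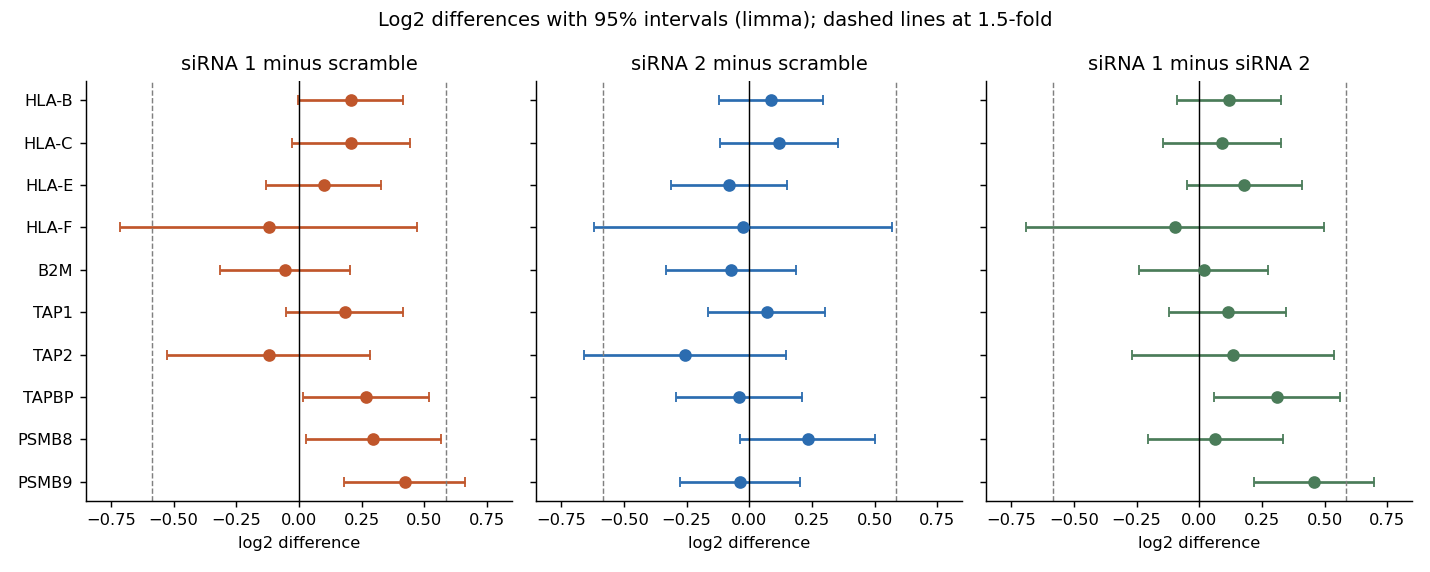
Log2 differences (x axis) of the 10 genes for siRNA 1 minus scramble, siRNA 2 minus scramble and siRNA 1 minus siRNA 2; points are limma estimates, bars 95% intervals and dashed lines 1.5-fold. The intervals of PSMB9, PSMB8 and TAPBP lie above 0 with siRNA 1, and none does with siRNA 2.

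For siRNA 1 against scramble, limma called 0 of the 10 genes, where 0.393% of all genes tested were called. At an unadjusted p under 0.05 PSMB9, PSMB8 and TAPBP stood higher (3 of 10, against 9.55% of all genes) and 0 lower (against 6.65%). The siRNA 1 arrays lay wholly above scramble for 7 of 10 genes (26.7% of all genes) and wholly below for 2 (22.7%). The median log2 difference was 0.19, against 0.01 over all genes. For 8 of the 10 genes the 95% interval lay within 1.5-fold in either direction. The intervals of HLA-F and PSMB9 reached past it. With siRNA 1, summed signals of the leukocyte markers were 272 to 301, against 231 to 264 with scramble and 234 to 242 with siRNA 2. Among them CD3E, a T cell marker, read 17.98 and 59.1 in scramble cells, 76.7 and 111 under siRNA 1, and 10.4 and 43.5 under siRNA 2. MS4A1, a B cell marker under the filter, read 4.57 and 2.59, then 43.1 and 58.6, then 46.4 and 29.4 in the same order. The excess of the leukocyte sum over scramble rested on these 2 markers. By group mean, PTPRC and CD14 also stood higher with siRNA 1 than with scramble. ITGAM (61.7 against 85.7), CD8A (7.84 against 24.5), LYZ (25.8 against 41.7) and NKG7 (12.3 against 32.5) stood lower. With siRNA 1 only CD3E had a mean above the medians of those arrays (70.5 and 76.1), and it passed the filter through the siRNA 1 arrays alone. Its log2 difference with siRNA 1 was 1.47 (95% interval -0.78 to 3.71, limma adjusted p = 0.479). Summed signals of the fibroblast and endothelial markers were 7005 to 7875 under siRNA 1, against 6409 to 6624 in scramble cells and 6091 to 6155 under siRNA 2, and LUM made up most of the sum. No marker of either list read exactly 0, and their part in the class I values was not tested.

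For siRNA 2 against scramble, limma again called 0 of 10, where 0.597% of all genes were called. At an unadjusted p under 0.05 there were 0 of 10 in either direction, against 12.0% higher and 8.76% lower over all genes. The siRNA 2 arrays lay wholly above scramble for HLA-B, HLA-C and PSMB8 (3 of 10, against 28.4% of all genes) and wholly below for TAP2 and TAPBP (2 of 10, against 24.0%). The median log2 difference was -0.03, against 0.02 over all genes. The 95% interval lay within 1.5-fold for 8 of 10 genes, those of HLA-F and TAP2 reaching past it. Summed signals of the 12 urothelial and epithelial markers were 122400 to 129506 under siRNA 2, against 144956 to 149790 in scramble cells and 140626 to 146347 under siRNA 1, and their part in the class I values was not tested. Taking both siRNAs together against scramble, 0 of 10 were called (0.510% of all genes), and PSMB8 alone stood higher at an unadjusted p under 0.05 (log2 difference 0.26, limma adjusted p = 0.229), against 11.1% of all genes higher and 7.44% lower. All 4 knockdown arrays lay above both scramble arrays for 3 genes, HLA-B, HLA-C and PSMB8 (14.7% of all genes), and below them for TAP2 (10.6%). These counts use the brightest probe set of each gene. On some other HLA-B and HLA-C probe sets the siRNA 2 arrays overlapped scramble or lay below it. The siRNA comparisons share the scramble arrays.

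The contrast of the siRNAs asks where the knockdowns themselves differ, and it does not use the scramble levels. PSMB9 stood higher with siRNA 1 than with siRNA 2 by a log2 difference of 0.46 (95% interval 0.22 to 0.70, limma adjusted p = 0.114), and TAPBP by 0.31 (0.06 to 0.56, adjusted p = 0.205). Neither was called. With a prior that followed intensity, PSMB9 reached an adjusted p = 0.0201 at 1.37-fold, under the 1.5-fold required. Limma called 0 of 10 genes (0.212% of all genes), and these 2 alone passed an unadjusted p under 0.05 (9.16% of all genes were higher by that rule and 9.53% lower). Of the 10 genes 9 lay above 0, all but HLA-F, against 48.8% of all genes, and for 6 the siRNA 1 arrays lay wholly above siRNA 2 (24.2% of all genes) and for 0 wholly below (26.5%). The median was 0.12, against -0.01. Of the 11 urothelial and epithelial markers tested, 10 also lay above 0 in this contrast, with a median of 0.17, and for 7 the siRNA 1 arrays lay wholly above siRNA 2. Their part in the class I values was not tested.

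The other probe sets of a gene tell how far these values depend on the probe set. Of the 26 probe sets 11 are of the _x_at type, which can bind related transcripts, and they include all 7 of HLA-B and HLA-C, so signals of these closely related heavy chains cannot be assigned to 1 gene with certainty. A fit over all 29374 probe sets above the filter called 0 of the 24 class I probe sets with siRNA 1 and 0 with siRNA 2 (0% of all probe sets with each). At an unadjusted p under 0.05 limma gave 2 higher with siRNA 1 (6.97% of all probe sets), the 1 of PSMB9 and an HLA-C probe set (0.31), and 1 lower with siRNA 2 (8.11%), a dim one of B2M.

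The 3 HLA-B probe sets stood at 0.21, 0.24 and 0.04 with siRNA 1 and at 0.09, 0.02 and -0.16 with siRNA 2, on the log2 scale. On the second, siRNA 2 array A (1431) lay below both scramble arrays (1557 and 1512). On the third, both siRNA 2 arrays (1053 and 1216) lay below scramble (1296 and 1235). The 4 of HLA-C lay above 0 with both siRNAs, spanning 0.09 to 0.31 for siRNA 1 and 0.06 to 0.12 for siRNA 2. On the second brightest of HLA-C, siRNA 2 array A (6931) lay below scramble array B (7081). The groups also overlapped on the dimmest, but all knockdown arrays lay above scramble on the remaining probe set. For HLA-E the brightest probe set and the dimmest, the 1 probe set of a heavy chain above the filter that is not of the _x_at type, had opposite signs, 0.10 and -0.02 with siRNA 1 and -0.08 and 0.14 with siRNA 2. Both bright probe sets of B2M gave differences of at most 0.08 in size. The dim B2M probe set read 293 and 225 in scramble cells, 297 and 232 under siRNA 1, and 182 and 138 under siRNA 2. On it both siRNA 2 arrays lay below the other 4, at a log2 difference of -0.69 (limma adjusted p = 0.254 over all probe sets), which the bright B2M probe sets did not show.

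TAP2 lay below 0 with siRNA 2 on all 3 probe sets above the filter (-0.26, -0.22 and -0.02). With siRNA 1 the same probe sets stood at -0.12, -0.02 and 0.13. On the second of them siRNA 1 array B (1172) lay above both scramble arrays (1075 and 1138), unlike on the brightest. TAPBP rested on its brightest probe set. A dim probe set stood at 0.27 with siRNA 1 and -0.43 with siRNA 2, and the dimmest at -0.68 and -0.23, with siRNA 1 duplicates as far apart as 133 and 43.2. The mean of the TAPBP probe sets gave -0.05 with siRNA 1, turning its sign. TAP1, PSMB8 and PSMB9 had 1 probe set each, so their values have no such check.

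**Figure D3:**
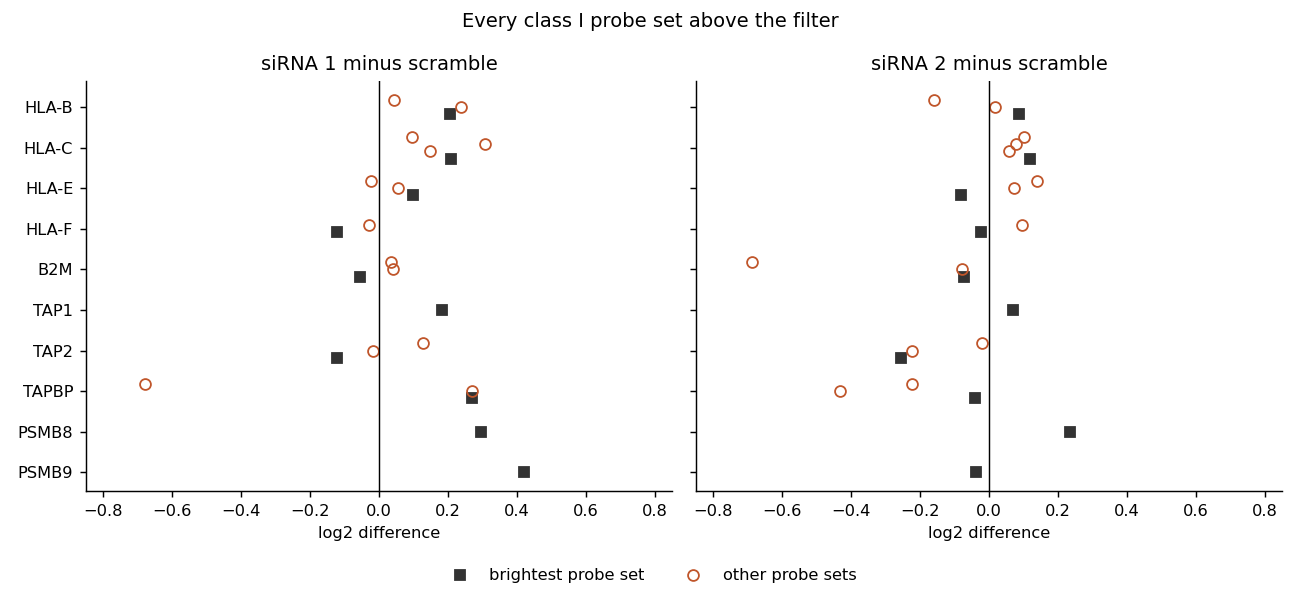
Log2 difference (x axis) of each of the 24 class I probe sets above the filter, by gene (y axis), for siRNA 1 minus scramble and siRNA 2 minus scramble; squares are the brightest probe set of a gene and circles the others. The HLA-C probe sets lie on the same side of 0 with both siRNAs, while those of HLA-E, B2M, TAP2 and TAPBP spread over both sides with siRNA 1.

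Of the other genes that supply and load peptides, 12 of 13 passed the filter and limma called 0 in any comparison. Of all genes 0.393% were called with siRNA 1, 0.597% with siRNA 2, 0.510% with both together and 0.212% between the siRNAs. At an unadjusted p under 0.05, 4 stood higher and 1 lower with siRNA 1 (9.55% and 6.65% of all genes), and 1 higher and 1 lower with siRNA 2 (12.0% and 8.76%). CALR, the chaperone calreticulin of the loading complex, read 7721 and 7388 in scramble cells, 10053 and 11288 under siRNA 1, and 8461 and 9195 under siRNA 2 (log2 differences 0.50 and 0.22, adjusted p = 0.142 and 0.303). PSME3, a proteasome activator of the nucleus, stood at -0.32 and -0.46 (adjusted p = 0.212 and 0.0888). Named after their values were seen, the peptide-trimming aminopeptidases ERAP1 and ERAP2 stood at 0.32 and 0.56 with siRNA 1 and at 0.31 and 0.05 with siRNA 2. PSMB10, the remaining immunoproteasome subunit, stood at 0.25 and -0.003. The median of the 12 was 0.10 with siRNA 1 and 0.01 with siRNA 2, against 0.01 and 0.02 over all genes. All 12 lay above 0 for siRNA 1 minus siRNA 2, against 48.8% of all genes and 10 of 11 urothelial and epithelial markers. Limma called 0 of the 12 there (0.212% of all genes) and gave 3 higher at an unadjusted p under 0.05 (9.16%). The constitutive subunits PSMB5, PSMB6 and PSMB7, which the immunoproteasome subunits replace, lay between -0.10 and 0.06 with siRNA 1 and between -0.01 and 0.19 with siRNA 2, with PSMB6 at 0.06 and 0.19 and PSMB7 at 0.05 and 0.11. None of the 3 was called or passed an unadjusted p under 0.05. Of all genes 0.212% to 0.597% were called, by comparison, and 6.65% to 12.0% passed the unadjusted p in a given direction.

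Among the transcriptional regulators of class I genes, 13 of 15 passed the filter, and RFXAP alone was called, with siRNA 2 (0.597% of all genes were called there). Their median log2 difference was 0.17 with siRNA 1 and 0.11 with siRNA 2, and at an unadjusted p under 0.05 limma gave 3 higher and 0 lower with siRNA 1 (9.55% and 6.65% of all genes), and 4 higher and 2 lower with siRNA 2 (12.0% and 8.76%). RFXAP is a subunit of the RFX complex, which binds the X box of class I and class II promoters. It read 263 and 270.4 in scramble cells, 334 and 322 under siRNA 1, and 457 and 455 under siRNA 2, and the groups did not overlap. It rose with siRNA 2 (log2 difference 0.77, 95% interval 0.57 to 0.97, limma adjusted p = 0.0462), and with siRNA 1 it stood at 0.30 (adjusted p = 0.192). The call was lost without any 1 of the 6 arrays (adjusted p = 0.125 to 0.196, log2 differences 0.75 to 0.79), where limma called 0 of all genes, and averaging over its probe sets gave 1.30 (adjusted p = 0.342). IRF9, the DNA-binding part of the interferon-stimulated factor ISGF3, read 811 and 886 in scramble cells, 1559.8 and 1256 under siRNA 1, and 1568 and 1887 under siRNA 2. Its log2 differences were 0.72 (adjusted p = 0.156) and 1.02 (adjusted p = 0.0695), and all 4 knockdown arrays lay above scramble.

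Other regulators were named after their values were seen. IRF1, an interferon-induced activator of class I genes, read 1111 and 1144 in scramble cells, 1336 and 1279 under siRNA 1, and 898 and 853 under siRNA 2. Its siRNA 1 arrays lay above and its siRNA 2 arrays below scramble, with log2 differences of 0.21 (limma adjusted p = 0.302) and -0.37 (adjusted p = 0.109) and 0.58 between the siRNAs (95% interval 0.37 to 0.79, adjusted p = 0.0795), none called. NLRC5, the class I transactivator, read 114 and 113 in scramble cells, 125 and 102 under siRNA 1, and 181 and 144 under siRNA 2 (0.51 with siRNA 2, adjusted p = 0.180). RFX5, the DNA-binding partner of RFXAP, stood at -0.26 and -0.51 (adjusted p = 0.507 and 0.184).

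**Figure D4:**
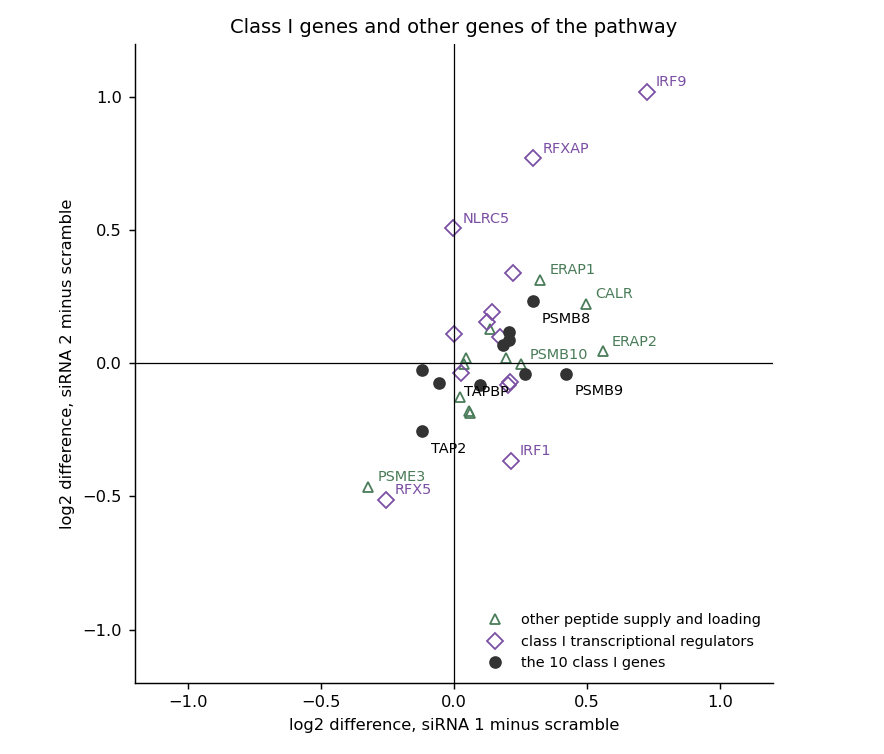
Log2 difference with siRNA 1 (x axis) against that with siRNA 2 (y axis), both minus scramble, for the 10 class I genes (filled circles), 12 other peptide supply and loading genes (triangles) and 13 class I regulators (diamonds); both axes use the same scramble arrays. RFXAP (0.30 and 0.77) is the 1 gene here that was called, with siRNA 2, and IRF1 lies at 0.21 and -0.37.

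The 5 genes whose log2 signals over the 6 arrays were most like the mean of the 10 class I genes were CRTAP, MAP3K1, LAMP3, KATNA1 and NECAB2, with a Pearson r of 0.993 to 0.997. The mean itself was highest on the siRNA 1 arrays (centred log2 0.10 and 0.08, against -0.06 to -0.03 on the others). That both siRNA 1 arrays lay above the other 4 in all 5 genes therefore follows from how they were picked. This holds for the LAMP3 difference below too. The 6 points share 3 groups. NECAB2 read above the array median with siRNA 1 alone (100.1 and 81.1, against 40.4 to 45.4 on the other 4 arrays). LAMP3, a lysosomal membrane protein of mature dendritic cells, read 379 and 364 in scramble cells, 671 and 643 under siRNA 1, and 402 and 368 under siRNA 2 (log2 difference 0.82 with siRNA 1, limma adjusted p = 0.0592, not called). Of the class I genes themselves, PSMB9 (r = 0.95) and TAPBP (0.94) followed their own mean most closely, and B2M (-0.23) and HLA-F (-0.16) least. Each is part of that mean.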

How the data were processed

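Biotin-labelled RNA of 6 RT-112 samples was measured on oligonucleotide arrays. The authors deposited a linear signal intensity for each probe set, made with Affymetrix Expression Console per the submitters' processing notes; the sources used here do not state its version or algorithm. All arrays had a mean of 500.067 to 500.07 once the top and bottom 2% were trimmed. No detection calls were used.

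Values were taken as log2(signal + 1). The platform table gave 41091 probe sets 1 symbol, 1801 several and 11721 none, besides 62 controls. Of those with 1 symbol, 41037 were found by Entrez identifier in RefSeq (GRCh38.p14) and 0 symbols changed. For each of 19775 genes the probe set of highest mean log2 signal was used, and the gene was tested when this exceeded the 50th percentile of signal on 2 or more arrays (12735 genes). Groups were compared over all 6 arrays with limma 3.58.1 in R 4.3.3 (3 residual and 1.72 prior degrees of freedom), and p-values were adjusted by Benjamini-Hochberg across every gene tested. The same fit was run over 29374 probe sets. The number of arrays limits the precision. Figures used matplotlib 3.10.9.

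The class I genes, the other gene lists and the tests were chosen with earlier results of these data known. Named by rule were the 10 genes with all their probe sets, PPP2R2A, list genes called in any comparison, the 2 genes of each list with the largest mean difference, and the 5 genes most like the mean of the 10. The other settings are given in the closing section.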

Additional observations from a re-analysis of the deposited data

How the results depend on the processing

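In all 15 other settings limma called 0 of the class I genes in each of the 4 comparisons: quantile normalization, centring on array medians, a pseudocount of 16, no filter, a filter on all 6 arrays, averaging over a gene's probe sets, probe sets that are not expected to bind related transcripts (which left 5 of the 10 genes), an intensity trend, the replicate block, and leaving out each of the 6 arrays. Of 580 values of single genes in these settings 30 had the opposite sign to the value reported, 0 of them called, and the adjusted p lay between 0.0201 and 1.00. Not all of these values were free to change sign. No filter, the filter on all 6 arrays, the intensity trend and the block leave each estimate as it is. Leaving out an array that is not part of a comparison does so too. The replicate letter as a block cannot move an estimate here, since each group has 1 array of each letter. With the block, PSMB9 with siRNA 1 (log2 difference 0.42) had a limma adjusted p = 0.216. The differences between arrays A and B correlated at -0.0309, 0.0139 and 0.0383 between groups, so arrays of 1 letter had little in common by this measure. The ACTB 3' to 5' ratio was higher on array B than on array A in each group, while the GAPDH ratio lay between 0.943 and 1.02 throughout. A difference under 1.5-fold could not be called by the rule used, and the 95% intervals cover the spread between duplicate arrays alone. RFXAP with siRNA 2 also lost its call after centring on medians (adjusted p = 0.0961), with no filter (0.181), with the block (0.129) and among probe sets not expected to bind related transcripts (0.0601), and was still called with quantile normalization (0.0466), a pseudocount of 16 (0.0416), the filter on all 6 arrays (0.0140) and an intensity trend (0.0107). Over all genes tested, the calls moved from 50 with siRNA 1, 76 with siRNA 2 and 27 between the siRNAs to 299, 472 and 362 with an intensity trend and to 244, 399 and 289 with the filter on all 6 arrays. They went to 0 in all comparisons with no filter, with averaged probe sets, with the block and without any 1 array, so a count of 0 class I genes there says nothing about stability.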

Other observations

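Of 10 class II genes 2 passed the filter, HLA-DQB1 at 100.2 to 135 and HLA-DMB at 89.4 to 195. Neither was called in any comparison by limma, with 0 at an unadjusted p under 0.05. Over all genes 0.212% to 0.597% were called, by comparison, and 6.65% to 12.0% passed the unadjusted p in a given direction. The class II chain HLA-DRA read 3.85 to 45.4 and the class II transactivator CIITA 5.59 to 73.0. Of the class I-like heavy chains, MR1, which presents vitamin metabolites to MAIT cells, read 681 and 753 in scramble cells, 518 and 539 under siRNA 1, and 548 and 533 under siRNA 2. Its log2 differences were -0.44 and -0.40 (limma adjusted p = 0.142 and 0.110), not called. HFE, the B2M-binding regulator of iron uptake, stood at 0.38 and 0.01 (adjusted p = 0.176 and 0.955). The stress ligands MICA and MICB of the receptor NKG2D lay between -0.17 and 0.08.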
